A study of Mus musculus with 30 samples.

Results

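Genes of T cells and of the NKG2D system were followed in mouse skin inflamed with the phorbol ester TPA. The genes were Cd3d, Cd3e and Cd3g, which encode chains of the CD3 signalling complex of the T cell receptor; the coreceptors Cd4 and Cd8a; the adhesion molecule Cd2; the effectors Gzmb and Ifng; the activating receptor Klrk1, which encodes NKG2D; and H60c, which encodes an NKG2D ligand of skin. They were found on the arrays by gene symbol, and all 15 probe sets that carry 1 of the 10 symbols were taken, of 45037 probe sets in all. Cd8a had 5 probe sets, Cd4 had 2 and each other gene had 1, and none of them carried a second symbol.

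The arrays were hybridised with RNA of shaved whole back skin of female 129–C57BL/6 mice aged 8 to 12 weeks. WT mice and mice deficient in D6 were compared. D6 (Ccbp2 on the arrays) is an atypical chemokine receptor that binds inflammatory CC chemokines and removes them without signalling, and it is found mainly on lymphatic endothelium. Skin was taken 1, 2, 4 or 6 days after 3 treatments with 50 µM TPA, given 24 h apart, and the skin that stands as day 0 received acetone according to the methods, whereas its titles call it untreated. The 30 arrays came from 30 mice, 3 for each of 10 combinations of genotype and day, so that no mouse was measured on more than 1 day. The question addressed is how genes of skin T cells and of this receptor and its ligands moved during the inflammation, and whether they moved otherwise without D6.

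NKG2D is carried by natural killer cells, by CD8 T cells and, in mice, by the gamma delta T cells that reside among the keratinocytes of the epidermis. Its ligands, the H60, Raet1 and Ulbp1 families, are distant relatives of MHC class I molecules and are known as surface signs of stressed or transformed cells. The receptor has no signalling tail of its own and works through the adaptors Hcst (DAP10) and Tyrobp (DAP12). H60c is known for its expression in skin, where it costimulates the epidermal gamma delta T cells.

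All levels below are log2 of the array intensity and all differences are differences of such levels, so that 1 unit is a doubling. Levels of different probe sets are not compared with each other, since each has its own brightness. A probe set passed the test at a Benjamini-Hochberg adjusted p under 0.05 in limma, over 36029 probe sets. Of the 15 member probe sets 13 were tested, and the Ifng probe set and the Cd8a probe set 1440811_x_at were among the 20% with the lowest mean, which were left out. In bulk skin, fewer cells of a type and less RNA per cell cannot be told apart. The medians of the arrays ran from 5.64 to 5.80, and arrays of the same group had a median SD of 0.187. The Ccbp2 probe set 1422112_at lay between 4.15 and 5.76 on the WT arrays and between 3.30 and 3.86 on the D6-deficient arrays, so both labels fitted the targeted gene on that probe set, and the genotypes overlapped on the other 2, 1422111_at (5.14 to 6.26 in WT, 4.55 to 5.42 in D6-deficient skin) and 1437937_at.

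The 250 bases upstream of the transcription start are shown for H60c and Gzmb, the 2 members whose level moved by more than 3-fold in both genotypes. They come from RefSeq on GRCm38.p6, and windows were at hand for 8 of the 10 members, not for Cd2 and Cd4. The genes H60c and Gzmb both lie on the minus strand. The H60c window is chr10:3267772-3268021 and the Gzmb window chr14:56262335-56262584, each written 5′ to 3′ on the strand of its gene, with capitals for a match to TGANTCA, the binding sequence of AP-1, the factor family through which TPA is known to act.
H60c promoter: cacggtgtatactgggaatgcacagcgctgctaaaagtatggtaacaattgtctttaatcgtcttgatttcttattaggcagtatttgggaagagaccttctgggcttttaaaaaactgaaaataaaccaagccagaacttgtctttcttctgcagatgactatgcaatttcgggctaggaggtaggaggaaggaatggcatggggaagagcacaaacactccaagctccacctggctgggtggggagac
Gzmb promoter: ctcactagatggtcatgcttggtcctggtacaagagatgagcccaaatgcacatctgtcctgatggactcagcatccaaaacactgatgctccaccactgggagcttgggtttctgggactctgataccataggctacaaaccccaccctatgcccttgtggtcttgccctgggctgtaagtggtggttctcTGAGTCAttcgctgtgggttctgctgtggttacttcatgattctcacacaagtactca
Searched on both strands, TGANTCA stood in the Gzmb window, at bases 58 to 52 before the start, and in none of the other 7. It stood in 6.75% of 32851 windows of this length. The gamma-activated site of STAT factors, TTCNNNGAA, was matched in the windows of Cd3d and Ifng and in 7.02% of all windows, and the interferon-stimulated response element was matched in 0 of 8 and in 2.98% of all. A match here describes letters only.

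H60c was the member that separated the genotypes most. It rose in WT skin after TPA and fell in D6-deficient skin, and on day 2 it was 15.3-fold lower without D6. The 3 WT arrays stood at 6.11, 5.28 and 6.50 on day 0, at 8.30, 6.65 and 8.44 on day 1, and at 8.85, 8.29 and 9.02 on day 2. All WT arrays of days 1 and 2 were above all WT arrays of day 0. They were back at 5.75, 5.97 and 5.74 on day 4 and stood at 7.51, 7.38 and 5.72 on day 6. The rise in WT skin was 1.83 (SE 0.49, adjusted p = 0.00799) on day 1 and 2.75, or 6.75-fold, on day 2 (adjusted p = 1.89e-04), and the level fell by 2.90 between days 2 and 4 (adjusted p = 1.83e-04). The difference from day 0 was -0.14 on day 4 (adjusted p = 0.843) and 0.91 on day 6 (adjusted p = 0.2). The day 1 rise no longer passed without WT day 0 replicate 2 or without WT day 1 replicate 3.

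In D6-deficient skin H60c started at 6.62, 5.88 and 6.48 on day 0 and stood at 7.06, 5.33 and 5.62 on day 1. It stood at 5.22, 4.54 and 4.59 on day 2, at 3.56, 4.15 and 3.88 on day 4 and at 5.90, 4.46 and 5.13 on day 6. All arrays of days 2 and 4 were below all arrays of day 0. The day 4 arrays lay around 3.72, the lowest mean of a tested probe set, where a dim level is only a bound, so the size of that fall is one of measured values. H60c fell by 1.54 on day 2 (adjusted p = 0.015) and fell by 2.46 on day 4 (adjusted p = 2.57e-04), and it rose by 1.30 from day 4 to day 6 (adjusted p = 0.0461). The day 2 fall no longer passed without D6-deficient day 0 replicate 1 or without D6-deficient day 2 replicate 2. On day 1 the difference from day 0 was -0.32 (adjusted p = 0.648) and on day 6 it was -1.17 (adjusted p = 0.0728).

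Set against WT skin of the same day, H60c in D6-deficient skin differed by 0.36 on day 0 (adjusted p = 0.809) and by -1.79 on day 1 (adjusted p = 0.27). On day 2 the difference was -3.93 (95% confidence interval -4.95 to -2.92, adjusted p = 1.18e-05), with each D6-deficient array below each WT array by more than 3 units. On day 4 it was -1.96 (95% confidence interval -2.97 to -0.94, adjusted p = 0.0727), again with no overlap of the arrays, as in 14.9% of all tested probe sets, and on day 6 it was -1.71 (adjusted p = 0.185). The change from day 0 also differed between the genotypes on day 2, by -4.30 (95% confidence interval -5.73 to -2.87, adjusted p = 5.13e-04), a comparison that shares its day 0 arrays with the other days. Leaving out each of the 30 arrays in turn kept the same-day difference between -4.15 and -3.79, and it passed each time. H60c is mainly a gene of keratinocytes, and the summed intensity of the 11 keratinocyte marker probe sets (Krt5, Krt14, Krt10, Krt1 and Trp63) on day 2 was 67813 to 71200 in D6-deficient skin and 63170 to 73985 in WT skin. These sums overlapped where H60c did not. On day 4 the sums were 18308 to 26438 in D6-deficient and 30408 to 37039 in WT skin, and on day 0 they were 45177 to 50342 and 32101 to 33767, and their part in the H60c values was not tested.

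**Figure D1:**
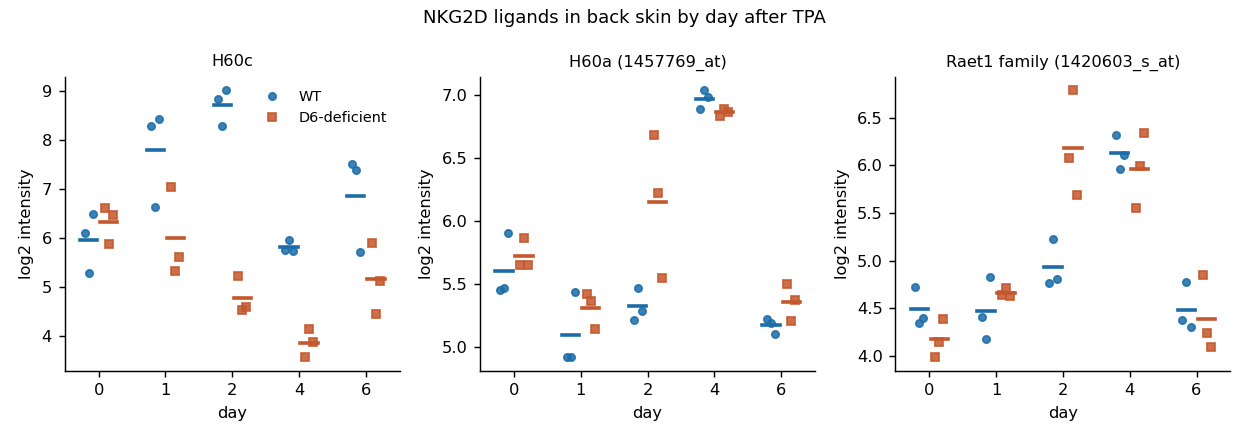
Log2 intensity of H60c, of H60a (probe set 1457769_at) and of the probe set shared by 5 Raet1 genes, by day after TPA, with 1 point per array, blue circles for WT, orange squares for D6-deficient skin and bars at the means of 3 arrays. H60c is high in WT skin on day 2, at 8.29 to 9.02, and low in D6-deficient skin, at 4.54 to 5.22, whereas the 5 Raet1 genes together are higher in D6-deficient skin on that day.

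Ordered by mean level, the 10 groups ran for H60c from D6-deficient day 4 at 3.86 to WT day 2 at 8.72. Only D6-deficient day 4, the lowest, did not overlap its neighbour in this order. The 4 genes whose group means followed H60c most closely were Dppa5a (r = 0.96), Cul3 (r = 0.95), Asah2 (r = 0.94) and Rassf10 (r = 0.93). These correlations are over 10 group means that share their arrays and are given as a description. The group means of Cul3 spanned only 0.52, against 4.86 for H60c.

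On day 2, 5 of the 6 probe sets of the other ligands and the adaptors passed as higher without D6, opposite to H60c, and that of Ulbp1 did not pass. Their list had 10 symbols, of which H60b was not matched, and 6 probe sets were tested. None passed as lower on that day, where 2.46% of all tested probe sets were higher and 1.99% lower. Their median difference was 0.71 and that of all tested probe sets was -0.02. The count was 1 of 6, the Raet1 probe set alone, without WT day 2 replicate 1, and 3 without D6-deficient day 2 replicate 1, 2 or 3. Relative to day 0 the count was 2 of 6, and by the methods' t-test 4 passed unadjusted on the same day and 0 adjusted. On day 4 all 6 were above day 0 in WT skin, where 17.3% of all probe sets rose, and all 6 in D6-deficient skin, where 18.8% rose, with medians of 1.19 and 1.24. From this list H60a, Ulbp1 and Hcst are described after their values were seen.

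The probe set shared by the 5 genes Raet1a to Raet1e cannot tell these ligands apart. In WT skin it stood at 4.73, 4.35 and 4.40 on day 0, at 4.76, 5.22 and 4.81 on day 2 and at 6.32, 5.97 and 6.11 on day 4. In D6-deficient skin it stood at 3.99, 4.15 and 4.39, at 6.07, 6.79 and 5.69, and at 5.55, 5.99 and 6.34 on the same days. The D6-deficient arrays of day 2 were all above the WT arrays of day 2, as in 10.4% of all tested probe sets. The arrays of the genotypes overlapped on day 4. It rose in D6-deficient skin by 2.01 on day 2 (SE 0.24, adjusted p = 5.94e-07) and in WT skin by 0.44 (adjusted p = 0.19), and on day 4 by 1.79 and 1.64. The difference between the genotypes on day 2 was 1.25 (95% confidence interval 0.76 to 1.75, adjusted p = 0.00201), and relative to day 0 it was 1.57 (adjusted p = 0.00616). Both passed with each array left out in turn.

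H60a, another ligand of the H60 family, has 2 probe sets. The probe set 1457769_at lay between 5.22 and 5.47 in WT and between 5.55 and 6.68 in D6-deficient skin on day 2. The arrays did not overlap, as in 22.3% of all tested probe sets, and the difference was 0.83 (adjusted p = 0.00844). The probe set 1440145_at differed by 0.77 (adjusted p = 0.0411). The first was lost without WT day 2 replicate 1 or D6-deficient day 2 replicate 1, and the second without any of 6 arrays, namely D6-deficient day 0 replicate 1, all 3 D6-deficient arrays of day 2 and WT day 2 replicates 1 and 3. On day 4 H60a rose in both genotypes, on 1457769_at by 1.36 in WT skin (adjusted p = 3.47e-06) and by 1.14 in D6-deficient skin (adjusted p = 2.54e-05). Ulbp1 rose on day 4 by 1.17 in WT and by 1.18 in D6-deficient skin, and it differed by 0.03 between the genotypes on day 2 (adjusted p = 0.966).

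The adaptor Tyrobp stood at 12.27, 12.49 and 12.54 in WT and at 13.03, 13.05 and 13.16 in D6-deficient skin on day 2, a difference of 0.65 (adjusted p = 0.00946). The groups did not overlap, as in 22.3% of all tested probe sets. The difference no longer passed without WT day 2 replicate 1. On day 0 Tyrobp had stood lower in D6-deficient skin, at 11.25, 11.59 and 11.42 against 11.91, 12.14 and 11.93, a difference of -0.57 (adjusted p = 0.0467) that was lost with any of 20 of the 30 arrays left out. Relative to day 0 the difference on day 2 was 1.22 (adjusted p = 9.1e-04). Hcst, the other adaptor, stood at 7.60, 7.70 and 7.95 in WT and at 8.02, 8.36 and 8.34 in D6-deficient skin on day 2, a difference of 0.49 (adjusted p = 0.0264). It was lost without WT day 2 replicate 1 or 2 or D6-deficient day 2 replicate 2 or 3. Tyrobp is also carried by macrophages and neutrophils. The summed intensity of the 9 macrophage and monocyte marker probe sets on day 2 was 30256 to 31738 in D6-deficient and 23921 to 26468 in WT skin, and on day 0 it was 20204 to 24834 and 27929 to 30830, and its part in the Tyrobp results was not tested.

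The receptor gene itself, Klrk1, passed in none of the comparisons with day 0 or between the genotypes. In WT skin it stood at 6.76, 7.75 and 7.04 on day 0, at 8.01, 7.37 and 7.89 on day 2 and at 7.91, 7.91 and 7.72 on day 4. In D6-deficient skin it stood at 7.09, 6.97 and 7.66 on day 0, at 8.35, 7.84 and 7.61 on day 2 and at 6.59, 6.38 and 8.10 on day 6. The day 2 arrays of each genotype overlapped its day 0 arrays. The differences from day 0 were 0.54 to 0.66 on the 4 days in WT skin (lowest adjusted p = 0.0954, on day 4), and in D6-deficient skin 0.58, 0.70, 0.26 and -0.22 (lowest adjusted p = 0.0821, on day 2). On day 2 the genotypes differed by 0.18, with a 95% confidence interval from -0.46 to 0.82. On day 4 the arrays did not overlap, at 7.40 to 7.56 in D6-deficient and at 7.72 to 7.91 in WT skin, as in 14.9% of all tested probe sets. On day 6 the difference was -0.80 (95% confidence interval -1.44 to -0.15, adjusted p = 0.464), where D6-deficient replicates 1 and 2 lay below the WT arrays and replicate 3, at 8.10, above them. The group means of Klrk1 ran from 7.02 to 7.94, and in this order the arrays of each group overlapped those of the next.

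Of the CD3 chains, Cd3d rose on each day in both genotypes, while Cd3g and Cd3e passed in no comparison. In WT skin Cd3d stood at 7.07, 7.63 and 7.85 on day 0, at 8.73, 9.08 and 8.43 on day 1, at 8.51, 8.48 and 8.72 on day 2, at 8.32, 8.26 and 8.41 on day 4 and at 8.84, 8.72 and 8.82 on day 6. In D6-deficient skin it stood at 6.99, 7.77 and 7.66 on day 0, at 8.47, 8.81 and 8.86 on day 1, at 8.59, 8.51 and 8.78 on day 2, at 8.09, 8.51 and 8.76 on day 4 and at 8.70, 8.22 and 9.52 on day 6. Every array after TPA lay above every array of day 0. The rises in WT skin were 1.23, 1.05, 0.81 and 1.28 on days 1, 2, 4 and 6 (adjusted p = 9.44e-04, 0.00306, 0.0125 and 8.53e-04), and the day 4 rise no longer passed without WT day 0 replicate 1. In D6-deficient skin they were 1.24, 1.15, 0.99 and 1.34 (adjusted p = 4.77e-04, 8.01e-04, 0.00287 and 3.05e-04). The genotypes differed by between -0.04 and 0.13 on the 5 days, with adjusted p from 0.945 to 0.991.

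Cd3e stayed between 6.70 and 7.36 on all arrays, and its group means between 6.86 and 7.14. Cd3g was widely spread on day 0, at 6.79, 7.77 and 7.68 in WT and at 6.47, 7.54 and 8.00 in D6-deficient skin. Its arrays of later days lay between 6.74 and 8.74. The largest difference of Cd3g from day 0 was 0.68, on WT day 1 (adjusted p = 0.151). The genes closest to Cd3e over the 10 group means were Arfip2 (r = 0.92), Tmem150c (r = 0.91), Ttc39c (r = 0.90) and Usp7 (r = 0.90), in a range of Cd3e of only 0.28.

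**Figure D2:**
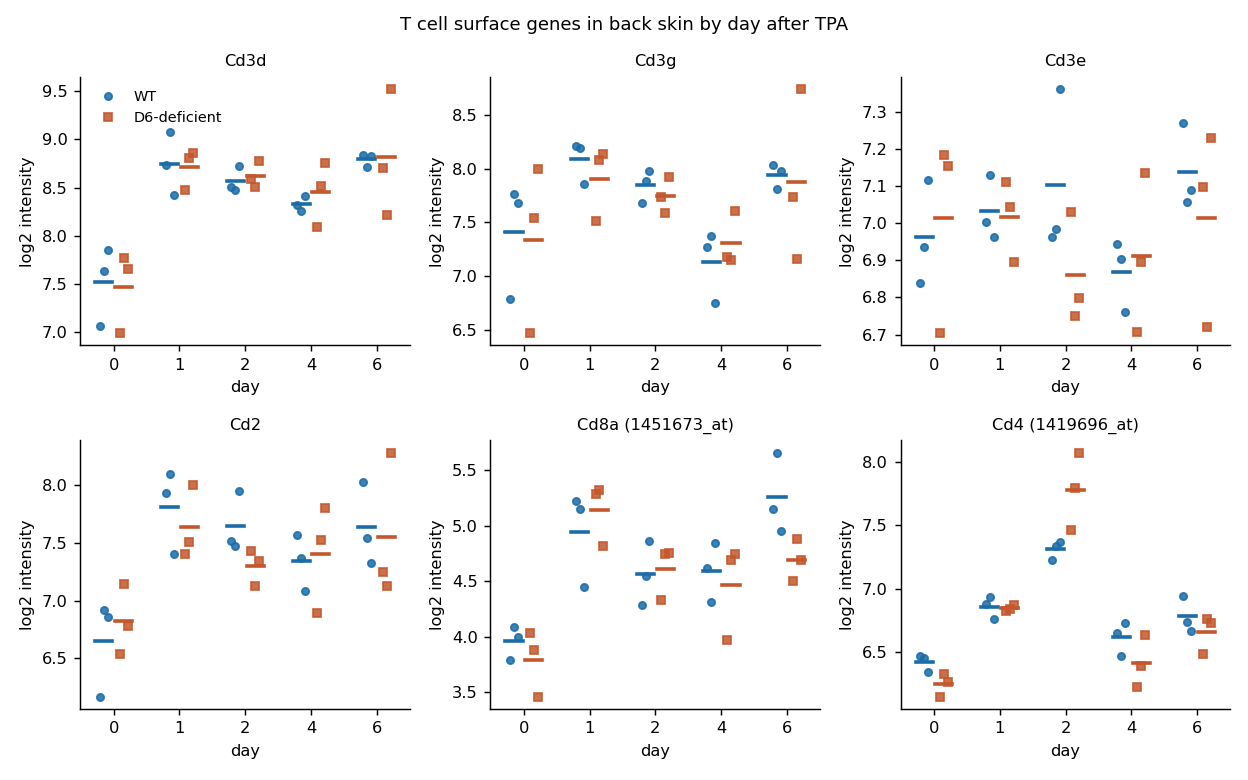
Log2 intensity of Cd3d, Cd3g, Cd3e, Cd2, Cd8a (probe set 1451673_at) and Cd4 (probe set 1419696_at), by day after TPA, with 1 point per array, blue circles for WT, orange squares for D6-deficient skin and bars at the means of 3 arrays. Each panel has its own axis. Cd3d is above day 0 on each later day in both genotypes, all Cd3e arrays lie within 6.70 to 7.36, and Cd4 is highest on day 2, at 7.47 to 8.07 in D6-deficient skin.

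Cd2, an adhesion molecule of T and natural killer cells, rose with Cd3d in WT skin. Its WT arrays stood at 6.17, 6.92 and 6.86 on day 0, at 7.94, 8.10 and 7.41 on day 1, at 7.52, 7.47 and 7.95 on day 2 and at 8.03, 7.54 and 7.33 on day 6. The rises were 1.17 (adjusted p = 0.00412), 1.00 (adjusted p = 0.0112) and 0.99 (adjusted p = 0.0146), and the difference on day 4 was 0.69 (adjusted p = 0.0563). Without WT day 0 replicate 1 the rises of days 2 and 6 no longer passed, nor did that of day 2 without WT day 2 replicate 3 or that of day 6 without WT day 6 replicate 1. In D6-deficient skin Cd2 stood at 6.54, 7.14 and 6.78 on day 0 and at 7.41, 7.51 and 8.00 on day 1. The arrays did not overlap, as in 49.9% of all tested probe sets, and only this rise of 0.82 passed (adjusted p = 0.0272). It was lost without D6-deficient day 0 replicate 1 or 3 or day 1 replicate 3. Between the genotypes Cd2 differed by -0.34 on day 2 (adjusted p = 0.64), where the arrays did not overlap, as in 22.3% of all tested probe sets.

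For Cd8a, the coreceptor of cytotoxic T cells, the probe sets disagreed. The brightest, 1425335_at, passed on days 1 and 2 in D6-deficient skin, with rises of 0.59 (adjusted p = 0.0173) and 0.57 (adjusted p = 0.0197). In WT skin its differences were 0.47 on days 4 and 6 (adjusted p = 0.0521 and 0.0795), with no overlap with day 0, as in 51.5% and 35.8% of all tested probe sets. The changes of the genotypes did not pass as different on any day (lowest adjusted p = 0.65). Both rises depended on D6-deficient day 0 replicate 3, at 4.41 against 5.22 and 5.33 in the other arrays, and were lost without it. The day 1 rise was also lost without D6-deficient day 1 replicate 1 or 2, and the day 2 rise without D6-deficient day 2 replicate 3. The probe set 1451673_at stood at 3.79, 4.09 and 4.00 in WT skin on day 0, at 5.22, 5.15 and 4.44 on day 1 and at 5.15, 5.66 and 4.96 on day 6. In D6-deficient skin it stood at 4.04, 3.88 and 3.46 on day 0, at 5.29, 5.32 and 4.82 on day 1 and at 4.50, 4.88 and 4.69 on day 6. All these later arrays were above all day 0 arrays of their genotype. The rises on 1451673_at were 0.98 on day 1 (adjusted p = 0.0037) and 1.29 on day 6 (adjusted p = 4e-04) in WT skin, and 1.35 (adjusted p = 1.05e-04) and 0.90 (adjusted p = 0.00523) in D6-deficient skin. It also passed as higher on WT day 4 (adjusted p = 0.0355) and on D6-deficient days 2 and 4 (adjusted p = 0.00783 and 0.0238), each lost with at least 1 single array left out. The day 0 arrays of 1451673_at lay around 3.72, the lowest mean of a tested probe set. Another probe set, 1444078_at, rose in D6-deficient skin by 0.90, 0.82, 0.51 and 0.83 on the 4 days (adjusted p = 6.05e-04, 0.00109, 0.0311 and 0.00157). In WT skin it rose by 0.55, 0.47 and 1.33 on days 1, 4 and 6 (adjusted p = 0.0331, 0.0467 and 2.98e-05), and on day 2 it differed by 0.50 (adjusted p = 0.0518). Of these rises 3 were lost with single arrays left out: WT day 1 without WT day 0 replicate 1 or 3 or WT day 1 replicate 1 or 2, WT day 4 with any of 16 arrays, and D6-deficient day 4 without D6-deficient day 0 replicate 1 or 3 or day 4 replicate 2 or 3. The probe set 1440164_x_at passed in no comparison, and no Cd8a probe set passed between the genotypes. On day 6 the arrays of 2 probe sets did not overlap between the genotypes, as in 9.24% of all tested probe sets. In WT and D6-deficient skin 1444078_at lay at 5.27 to 5.52 and at 4.71 to 5.18, and 1451673_at at 4.96 to 5.66 and at 4.50 to 4.88. On day 4 the arrays of 1425335_at did not overlap, at 5.50 to 5.58 and at 5.22 to 5.35, as in 14.9% of all.

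Cd4, the coreceptor of helper and regulatory T cells, peaked on day 2 and was then higher in D6-deficient skin. On the brighter probe set, 1419696_at, WT skin stood at 6.47, 6.46 and 6.34 on day 0, at 6.88, 6.94 and 6.76 on day 1, at 7.23, 7.34 and 7.37 on day 2 and at 6.65, 6.47 and 6.73 on day 4. D6-deficient skin stood at 6.15, 6.33 and 6.26 on day 0, at 6.82, 6.84 and 6.87 on day 1, at 7.47, 7.79 and 8.07 on day 2 and at 6.23, 6.39 and 6.63 on day 4. The D6-deficient arrays of day 2 were above all other arrays of this probe set. The rise on day 2 was 0.89 in WT skin (adjusted p = 1.34e-05) and 1.53, or 2.89-fold, in D6-deficient skin (adjusted p = 2.72e-09), and between days 2 and 4 the level fell by 0.69 (adjusted p = 3.74e-04) in WT and fell by 1.36 in D6-deficient skin (adjusted p = 5.41e-08). The second probe set, 1427779_a_at, stood at 3.97, 4.33 and 4.10 on day 0 and at 4.86, 4.98 and 5.09 on day 2 in WT skin, and at 3.73, 3.95 and 3.73 and then at 5.50, 6.16 and 5.55 in D6-deficient skin. Its rise on day 2 was 0.85 in WT (adjusted p = 8.95e-04) and 1.93 in D6-deficient skin (adjusted p = 1.2e-08), whose day 0 arrays lay close to 3.72, the lowest mean of a tested probe set.

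Between the genotypes on day 2, Cd4 differed by 0.47 on 1419696_at (95% confidence interval 0.21 to 0.73, adjusted p = 0.0298) and by 0.76 on 1427779_a_at (95% confidence interval 0.40 to 1.12, adjusted p = 0.01). The arrays did not overlap on either probe set, as in 22.3% of all tested probe sets. The first difference was lost without any of 5 single arrays (the 3 WT arrays of day 2 and D6-deficient day 2 replicates 2 and 3) and the second without WT day 2 replicate 1 or D6-deficient day 2 replicate 2. Relative to day 0 the differences were 0.64 (adjusted p = 0.032) and 1.09 (95% confidence interval 0.58 to 1.60, adjusted p = 0.00899), of which the second passed whichever array was left out. The first was lost with 8 of the 30 arrays left out singly (WT day 0 replicates 1 and 2, WT day 2 replicates 1 and 2, D6-deficient day 0 replicates 1 and 3 and D6-deficient day 2 replicates 2 and 3). On day 0 the D6-deficient arrays already lay below the WT arrays without overlap, as in 21.6% of all tested probe sets. They were at 6.15 to 6.33 against 6.34 to 6.47 on 1419696_at and at 3.73 to 3.95 against 3.97 to 4.33 on 1427779_a_at. The differences relative to day 0 include this gap. In a fit to the arrays of the contrast alone the same-day differences had adjusted p of 0.157 and 0.0524. Some mouse dendritic cells also carry CD4, so the marker sums of day 2 stand beside this result. The T cell list below summed to 5588 to 6297 in D6-deficient and to 5787 to 6905 in WT skin, which overlapped. Macrophage and monocyte markers summed to 30256 to 31738 against 23921 to 26468, and dendritic and Langerhans cell markers to 1633 to 2365 against 3949 to 4696, neither with an overlap. Neutrophil markers summed to 48785 to 54242 against 38055 to 51253. The part of these cells in the Cd4 difference was not tested.

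Gzmb, which encodes the granule protease granzyme B of cytotoxic lymphocytes, peaked on day 4 in both genotypes. Its WT arrays stood at 5.17, 5.12 and 5.39 on day 0, at 6.81, 6.39 and 6.35 on day 1, at 6.97, 7.13 and 6.68 on day 2, at 8.74, 8.51 and 8.71 on day 4 and at 6.34, 5.90 and 5.36 on day 6. Its D6-deficient arrays stood at 6.41, 5.70 and 5.80 on day 0, at 5.86, 6.52 and 6.91 on day 1, at 7.79, 6.83 and 7.77 on day 2, at 9.24, 9.40 and 9.81 on day 4 and at 5.77, 6.30 and 7.20 on day 6. In each genotype all day 4 arrays were above those of every other day. The rise on day 4 was 3.43, or 10.8-fold, in WT skin (SE 0.32, adjusted p = 1.06e-08) and 3.51, or 11.4-fold, in D6-deficient skin (adjusted p = 4.56e-09). Gzmb had risen by 1.29 (adjusted p = 0.00415) and 1.70 (adjusted p = 2.85e-04) on days 1 and 2 in WT skin. In D6-deficient skin it rose by 1.49 on day 2 (adjusted p = 5.62e-04), and on day 1 the difference was 0.46 (adjusted p = 0.268), with arrays that overlapped those of day 0. From day 4 to day 6 it fell by 2.79 in WT (adjusted p = 5.91e-07) and fell by 3.06 in D6-deficient skin (adjusted p = 7.34e-08). Each passed difference of Gzmb from day 0 also passed with each array left out in turn.

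Between the genotypes Gzmb differed by 0.74 on day 0 (adjusted p = 0.266) and by 0.83 on day 4 (95% confidence interval 0.18 to 1.48, adjusted p = 0.307), and the arrays did not overlap on either day, as in 21.6% and 14.9% of all tested probe sets. The change from day 0 to day 4 differed by 0.09 (95% confidence interval -0.83 to 1.01, adjusted p = 0.977). Over the 10 group means Gzmb was followed most closely by Csrnp1 (r = 0.99), Acap1 (r = 0.98), the cytokine gene Il6 (r = 0.98) and the cytokine gene Clcf1 (r = 0.98). The group means of Il6 spanned 7.32 and those of Gzmb 4.26.

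Ifng, the gene of interferon gamma, gave no usable level. Its single probe set had a mean in percentile 15.2 of all probe sets, and its 30 arrays lay between 3.10 and 3.98, with group means from 3.34 to 3.65. In a fit with no filter it passed in 0 of 17 comparisons by limma, with 0 at an unadjusted p under 0.05 and a lowest adjusted p of 0.373, and the differences ran from -0.31 to 0.23. A dim probe set gives a bound on what could be seen, not on the protein or on its source cells.

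**Figure D3:**
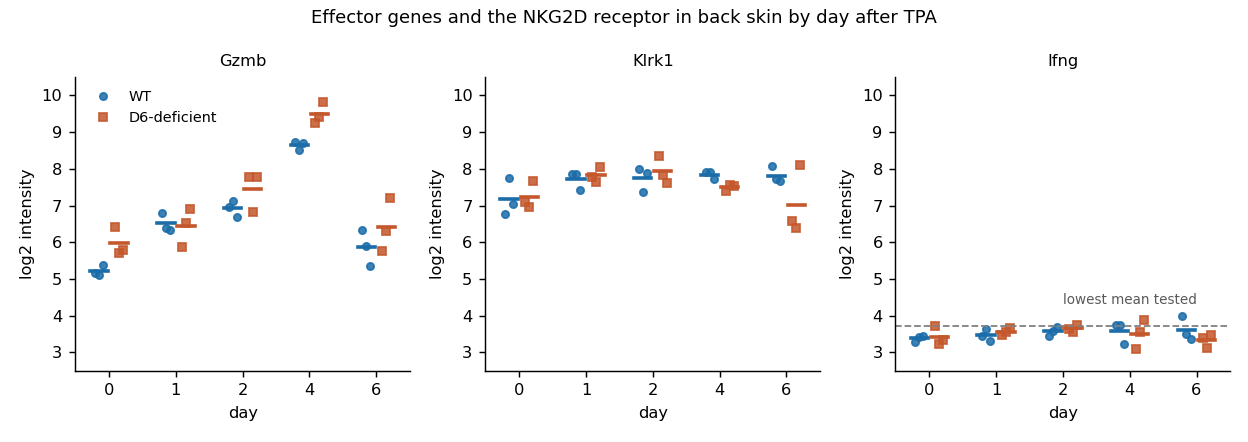
Log2 intensity of Gzmb, Klrk1 and Ifng on 1 common axis, by day after TPA, with 1 point per array, blue circles for WT, orange squares for D6-deficient skin, bars at the means of 3 arrays and a dashed line at 3.72, the lowest mean of a tested probe set. Gzmb peaks on day 4 in both genotypes at 8.51 to 9.81, while the group means of Ifng all stay below the line.

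Of the 13 tested member probe sets, 8 probe sets of 6 genes were higher on day 1 in WT skin and none was lower, where 11.4% of all tested probe sets were higher and 12.7% lower. On day 2 the count was 6, against 11% of all (15% were lower), on day 4 it was 4, against 17.3% (21.8% lower), and on day 6 it was 5, against 10.2% (11.9% lower). In D6-deficient skin 7 probe sets of 4 genes were higher on day 1, where 18.2% of all were higher and 18.1% lower. The count was 7 on day 2 (17.5% of all), 5 on day 4 (18.8%) and 5 on day 6 (16%, with 15.7% lower). H60c was the only member that passed as lower after TPA, on days 2 and 4 in D6-deficient skin, where 20.6% and 22.4% of all tested probe sets were lower. Over the 4 days together 8 of the 13 passed at least once in WT skin, where 51.6% of all tested probe sets did, and 9 in D6-deficient skin, where 62.5% did, so over all days the members' share was near that of all probe sets. The median difference of the 13 was 0.55, 0.61, 0.47 and 0.64 on the 4 days in WT skin and 0.59, 0.70, 0.28 and 0.45 in D6-deficient skin, and the medians of all tested probe sets lay between -0.01 and 0.02. These comparisons share the day 0 arrays of their genotype.

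Few members also moved by more than 3-fold. In WT skin these were H60c on day 1, where 0.93% of all tested probe sets rose by so much, Gzmb and H60c on day 2 (1.2%) and Gzmb on day 4 (1.76%). In D6-deficient skin they were the dimmer Cd4 probe set on day 2 (1.7%) and Gzmb on day 4 (1.97%), and H60c was more than 3-fold lower on day 4, as were 2.04% of all. The lower groups of this Cd4 probe set and of H60c on day 4 lay near the lowest mean tested. Between the genotypes only H60c did so, on day 2, where 0.161% of all probe sets were lower by so much on the same day and 0.555% relative to day 0.

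Between the genotypes on the same day, the members that passed were all on day 2: both Cd4 probe sets higher, where 2.46% of all tested probe sets were higher, and H60c lower, where 1.99% were lower. On days 0, 1, 4 and 6 limma passed 0 of the 13, where 1.57%, 0.0555%, 0.513% and 0.125% of all tested probe sets passed. At an unadjusted p under 0.05 the counts on those days were 1, 1, 2 and 4, and by the methods' t-test they were 1, 0, 4 and 1 unadjusted and 0 adjusted. Over the 5 days 3 of the 13 passed at least once, against 6.11% of all. Relative to day 0 the same 3 probe sets passed on day 2 and no other day (5.63% of all passed on at least 1 of the 4 days), 2 of them higher, where 2.78% of all were higher, and 1 lower, where 2.62% were lower. On days 1, 4 and 6 limma passed 0, where 0.0194%, 0.608% and 0.025% of all passed, with 1, 1 and 1 at an unadjusted p under 0.05, and the methods' t-test gave 3, 3 and 3 unadjusted and 0 adjusted.

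**Figure D4:**
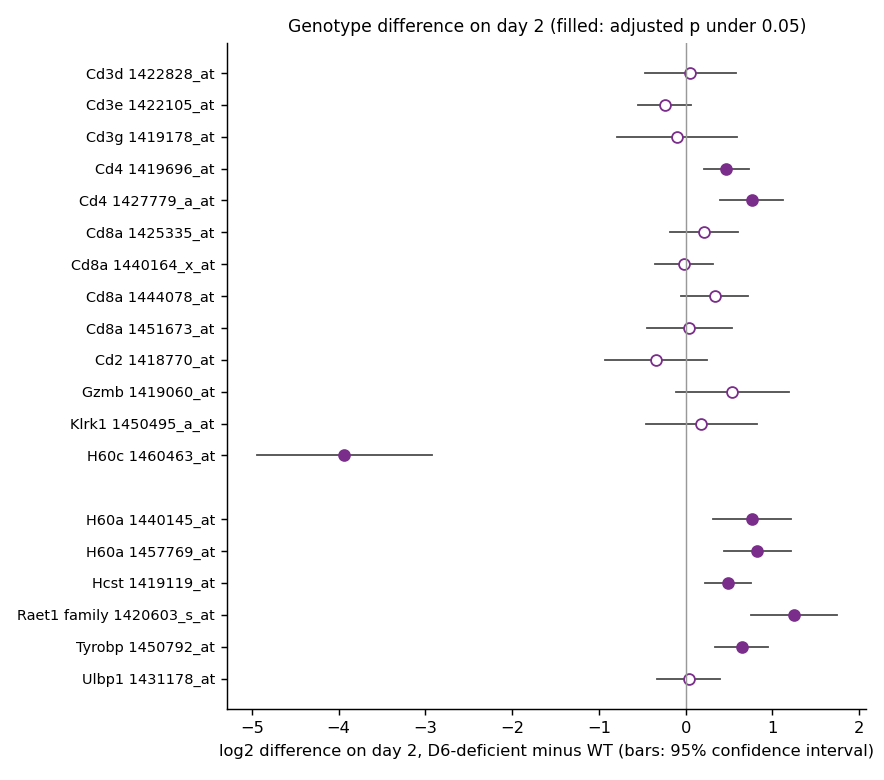
Difference of D6-deficient from WT skin on day 2 in log2 intensity for the 13 tested member probe sets (above) and the 6 probe sets of other NKG2D ligands and adaptors (below), with 95% confidence intervals as bars and filled points for an adjusted p under 0.05. H60c stands apart at -3.93, both Cd4 probe sets are above 0, and 5 of the 6 other ligand and adaptor probe sets are above 0 with filled points.

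Of the wider genes of T cells, about as many rose after TPA in each genotype, and none passed between the genotypes. The list of T cell receptor, coreceptor and signalling genes had 24 symbols, 21 of them matched, with 44 tested probe sets. In WT skin 26, 26, 24 and 25 of the 44 were higher than on day 0 on days 1, 2, 4 and 6, where 11.4%, 11%, 17.3% and 10.2% of all tested probe sets were. In D6-deficient skin 27, 26, 28 and 22 were higher, where 18.2%, 17.5%, 18.8% and 16% of all were, and none was lower on any day. The medians were 0.80, 0.66, 0.54 and 0.69 in WT and 0.65, 0.58, 0.55 and 0.50 in D6-deficient skin. Over the 9 comparisons between the genotypes limma passed 0 of 396 results, where 35 had an unadjusted p under 0.05, and the methods' t-test gave 36 unadjusted and 0 adjusted. Of all tested probe sets, limma passed 1.57%, 0.0555%, 4.45%, 0.513% and 0.125% on days 0, 1, 2, 4 and 6. Relative to day 0 it passed 0.0194%, 5.4%, 0.608% and 0.025% on days 1, 2, 4 and 6.

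A probe set that carries Tcra, the alpha chain of the T cell receptor, with a second symbol rose by 2.28, 1.75, 1.34 and 2.10 on the 4 days in WT skin and by 1.96, 1.58, 1.21 and 1.96 in D6-deficient skin. It stood at 5.24, 5.90 and 5.96 on WT day 0 and at 7.90, 8.22 and 7.83 on WT day 1, and at 5.66, 5.87 and 5.65 and then 7.41, 7.74 and 7.90 in D6-deficient skin. All day 1 arrays were above all day 0 arrays. Icos, a costimulator of activated T cells that was picked after its values were seen, rose on the probe set 1421931_at by 2.17, 2.04, 1.73 and 1.74 in WT and by 1.60, 1.32, 1.54 and 1.41 in D6-deficient skin. Values of its other tested probe sets, 1421930_at and 1436598_at, are not given here. Ccr7, the lymph node homing receptor of T cells and of migrating dendritic cells, rose with another timing, on day 4. It stood at 4.74, 4.02 and 4.77 on day 0 and at 9.04, 8.57 and 9.01 on day 4 in WT skin, and at 5.12, 4.91 and 5.19 and then 9.11, 8.29 and 9.05 in D6-deficient skin. The rise of Ccr7 was 4.37 (adjusted p = 8.8e-13) and 3.75 (adjusted p = 6.81e-12).

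Genes of gamma delta and epidermal T cells, the resident cells that carry NKG2D in mouse skin, gave 17 tested probe sets from 11 of 15 symbols. In WT skin 5, 5, 5 and 6 were higher on the 4 days and none was lower, where 11.4%, 11%, 17.3% and 10.2% of all tested probe sets were higher. In D6-deficient skin 6, 6, 6 and 3 were higher and 1, 0, 0 and 1 lower, where 18.2%, 17.5%, 18.8% and 16% of all were higher. Itgae (CD103), the integrin that holds T cells in the epidermis, was picked after its values were seen and rose on the probe set 1449216_at by 1.11 on day 1 and by 1.20 on day 6 in WT skin (adjusted p = 4.86e-04 and 3.1e-04), and by 0.97 on day 1 in D6-deficient skin (adjusted p = 9.67e-04). Values of its other tested probe set, 1447541_s_at, are not given here. The probe set shared by Tcrg-V2 and Tcrg-V3, receptor chains of gamma delta T cells, was also picked after its values were seen and passed in no comparison. It stood at 8.00, 8.29 and 8.43 in WT and at 8.50, 8.32 and 8.47 in D6-deficient skin on day 2, a difference of 0.19 (adjusted p = 0.877). On the day when H60c differed most, this probe set overlapped between the genotypes.

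Of this list, 3 probe sets differed between the genotypes on the same day. Cd160, a receptor of cytotoxic lymphocytes that was picked after its values were seen, was higher in D6-deficient skin on day 2 by 0.67 on 1420066_s_at (adjusted p = 0.0195), which was lost without WT day 2 replicate 1 or 2 or D6-deficient day 2 replicate 2 or 3. Its other probe sets did not pass on day 2, with differences of 0.40 on 1420396_at (adjusted p = 0.186) and -0.03 on 1420067_at (adjusted p = 0.945). The other 2 that passed were on day 4, where 0.513% of all tested probe sets passed. A probe set shared by Il22 and Iltifb stood at 3.55, 3.95 and 3.81 in WT skin and at 7.93, 6.32 and 6.96 in D6-deficient skin on day 4, a difference of 3.30 (95% confidence interval 2.35 to 4.25, adjusted p = 4.67e-04). All D6-deficient arrays were above all WT arrays by more than 2 units. These WT arrays lay around 3.72, the lowest mean of a tested probe set, so the size of the difference is one of measured values. On day 2 the WT arrays had stood at 6.00, 5.02 and 3.75, above day 0 by 1.92 (adjusted p = 0.00308). Il17a stood at 4.51, 4.55 and 5.27 in WT and at 8.01, 5.49 and 6.32 in D6-deficient skin on day 4, a difference of 1.83 (adjusted p = 0.0447) that no longer passed with any of 22 of the 30 arrays left out. The same-day Il22 difference passed with each array left out.

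Among 11 tested probe sets of other cytotoxic effector genes, 0, 0, 5 and 2 were higher on the 4 days in WT skin and 3, 4, 7 and 0 in D6-deficient skin, and 1 was lower, on WT day 2. Of all tested probe sets 11.4%, 11%, 17.3% and 10.2% were higher in WT and 18.2%, 17.5%, 18.8% and 16% in D6-deficient skin. The shares of this list were below those of all on WT days 1 and 2 and on D6-deficient day 6. They were above them on WT days 4 and 6 and on D6-deficient days 1, 2 and 4. Gzma, the gene of granzyme A, stood at 6.51, 7.59 and 6.73 on day 0 and at 8.96, 8.64 and 8.31 on day 4 in WT skin, and at 7.15, 6.81 and 6.45 and then 8.45, 8.98 and 9.48 in D6-deficient skin. All day 4 arrays were above all day 0 arrays, and the rises were 1.70 (adjusted p = 0.00188) and 2.17 (adjusted p = 1.44e-04). Serpinb9, the inhibitor that protects cells from granzyme B, was picked after its values were seen and rose on day 4 by 1.17 in WT (adjusted p = 1.1e-05) and by 1.57 in D6-deficient skin (adjusted p = 1.39e-07) on 1422601_at. On its other probe set, 1439790_at, the change from day 0 to day 2 was 0.88 higher in D6-deficient skin (adjusted p = 0.0277), which was lost without WT day 0 replicate 1 or 3, WT day 2 replicate 2 or 3, D6-deficient day 0 replicate 1 or D6-deficient day 2 replicate 2. This was the only probe set of the cytotoxic list to pass among 99 results between the genotypes, where 11 had an unadjusted p under 0.05. Of all tested probe sets 0.0194% to 5.4% passed, depending on the comparison.

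Of 13 tested probe sets of natural killer cell genes, 1, 0, 6 and 2 were higher in WT and 2, 4, 6 and 1 in D6-deficient skin on the 4 days and none was lower, where 11.4%, 11%, 17.3% and 10.2% of all tested probe sets were higher in WT and 18.2%, 17.5%, 18.8% and 16% in D6-deficient skin. Klrd1 (CD94), which was picked after its values were seen, rose on day 4 by 0.91 in WT (adjusted p = 0.00476) and by 1.08 in D6-deficient skin (adjusted p = 0.00108). Between the genotypes limma passed 0 of 117 results for this list, with 15 at an unadjusted p under 0.05, and the methods' t-test gave 19 unadjusted and 0 adjusted. In these comparisons limma passed only 0.0194% to 5.4% of all tested probe sets. Genes of interferon gamma production and reception gave 14 tested probe sets, of which 3, 4, 5 and 2 were higher and 1, 0, 1 and 0 lower in WT skin, and 3, 2, 6 and 1 higher and 3, 2, 3 and 2 lower in D6-deficient skin. The shares of all tested probe sets that were higher were those given beside the natural killer cell genes for the same days. Those lower were 12.7%, 15%, 21.8% and 11.9% in WT and 18.1%, 20.6%, 22.4% and 15.7% in D6-deficient skin. Stat4, which transmits interleukin 12 signals, was the most changed of them, with a rise on day 4 of 2.57 in WT skin (adjusted p = 1.86e-11) and of 2.85 in D6-deficient skin (adjusted p = 2.16e-12). Between the genotypes 0 of 126 results of this list passed by limma, where 0.0194% to 5.4% of all tested probe sets passed, depending on the comparison. Of the 126, 9 had an unadjusted p under 0.05, and the methods' t-test gave 21 unadjusted and 0 adjusted.

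Within groups, the CD3 chains, Cd2 and Klrk1 varied together from mouse to mouse. The deviations of the 30 arrays from their group means correlated at r = 0.85 between Cd3d and Cd3g, at 0.83 between Cd3d and Cd2, at 0.73 between Cd3d and Cd3e and at 0.61 between Cd3d and Klrk1. These are descriptions, since the 2 values of each point come from 1 array. Klrk1 was closest to Cd2 (0.70) and Cd3g (0.66) in this respect. The deviations of Cd3d correlated with those of Cd4 at 0.33 and of Cd8a at -0.20 (brightest probe sets) and with those of H60c at -0.17. D6-deficient day 6 replicate 3 stood apart in this pattern, with 9.52 for Cd3d against 8.70 and 8.22 in the other arrays of its group, 8.74 for Cd3g against 7.74 and 7.16, and 8.28 for Cd2 against 7.25 and 7.13. Its T cell list summed to 7741 against 4997 to 5245 in the others. Its marker sums of other cells were also higher, at 5754 against 3274 and 3585 for dendritic and Langerhans cells, at 8470 against 5541 and 5371 for mast cells and at 1064 against 531 and 429 for natural killer cell genes, and it had the lowest neutrophil sum, 6991 against 10225 and 23006.

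**Figure D5:**
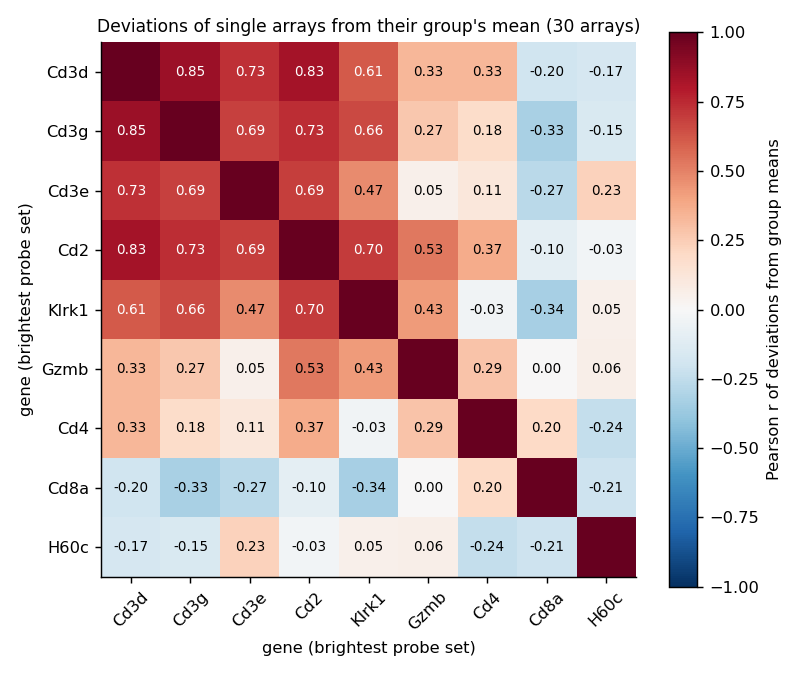
Heat map of Pearson r between 9 member genes, from the deviations of 30 arrays from the means of their groups, with 1 cell per pair of genes. Cd3d, Cd3g, Cd3e, Cd2 and Klrk1 correlate with each other at up to 0.85, while the r between Cd3d and H60c is -0.17.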

How the data were processed

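Per the labels, RNA of whole back skin was hybridised to 1 Affymetrix mouse genome array per mouse. The authors normalized the arrays by RMA (background correction, quantile normalization, summarization) in GeneSpring GX and deposited linear intensities, which the base-line transformation of the methods had not touched; log2 was taken here. The other deposited text, a sample sheet without values, was not used. Arrays were grouped by label, and 64 control probe sets and the 9008 probe sets with the lowest mean (20%, as in the methods) were left out. A limma 3.58.1 model (R 4.3.3, lmFit and eBayes) with a mean for each group took in all 30 arrays, with no fold threshold for passing; the methods give unpaired t-tests at more than 3-fold. The fit was tested on simulated data. With 3 arrays against 3, exact permutation gives no p under 0.1, and the number of arrays limits the precision.

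The members and gene lists were chosen with earlier results of these data known. All members were named. From the lists, a rule took genes that passed with more than 3-fold between the genotypes. Where a list had none, the rule took the largest changes from day 0 that passed with more than 3-fold. The genes of this rule stand beside genes said to be picked after their values were seen. Alternatives were another threshold, test, filter, scaling, variance prior and set of arrays, averaged probe sets, a covariate from hybridization controls, a replicate block and each array left out. Promoter windows came from RefSeq (Python 3.11.15; figures by matplotlib 3.10.9).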

Additional observations from a re-analysis of the deposited data

Results flagged for a closer look

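Flagged were members whose change from day 0 differed between the genotypes by the interaction test in limma. Probe sets of the other gene lists were flagged only if that difference also exceeded 3-fold, and cell type markers were not searched. Together these were 4 probe sets, and smaller differences that passed are given above. The change of H60c on day 2 was lower by 4.30 on the log2 scale in D6-deficient skin (a difference of -4.30, adjusted p = 5.13e-04). The changes of Cd4 on day 2 were higher by 0.64 on 1419696_at (adjusted p = 0.032) and by 1.09 on 1427779_a_at (adjusted p = 0.00899). The change of the probe set shared by Il22 and Iltifb on day 4 was higher by 3.00 (adjusted p = 0.0309), and it was lost without any of 8 single arrays (WT day 0 replicates 1, 2 and 3, WT day 4 replicates 1 and 2, D6-deficient day 0 replicates 1 and 3 and D6-deficient day 4 replicate 1). The WT day 4 arrays of this probe set lay around 3.72, the lowest mean of a tested probe set.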

How the results depend on the processing

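The number of the 13 tested member probe sets that passed on 1 or more days was 8 in WT skin after TPA, 9 in D6-deficient skin, 3 between the genotypes on the same day and 3 relative to day 0. A threshold of more than 3-fold lowered these counts to 2, 3, 1 and 1. The methods' t-test after Benjamini-Hochberg adjustment gave 4 in WT skin, 0 on the same day and 1 relative to day 0, and without adjustment 6 on the same day and 7 relative to day 0. A fit to the arrays of the contrast alone gave 1 on the same day. With 1 array left out the counts ran from 8 to 10 in WT skin, from 8 to 10 in D6-deficient skin, from 1 to 4 on the same day and from 2 to 3 relative to day 0, and the same-day count was 1 without WT day 2 replicate 1 and without D6-deficient day 2 replicate 2. Of 55 single results that passed, 32 passed with each array left out in turn. No result that passed in the main fit or in an alternative had the opposite direction in the other, and results that passed in neither were not checked for direction. With the replicate number as a block the counts were 9, 9, 3 and 3, and 4 of 221 single results newly passed while none was lost; deviations of same-numbered arrays correlated at a median r of -0.01 (from -0.35 to 0.48, over 0.1 in 31 of 135 pairs), so the numbers were not read as pairs. The hybridization controls separated the arrays into 13 dimmer and 17 brighter ones, with 6 and 9 WT arrays, and this covariate made 1 single result weaker; within these sets the H60c difference on day 2 was -3.97 (2 D6-deficient arrays against 1) and -4.07 (1 against 2). Near-background probe sets, Ifng among them, limit what could be seen.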

Other observations

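Langerhans cells share the epidermis with the gamma delta T cells, and their defining gene Cd207 (langerin), picked after its values were seen, moved on the same day as H60c. Its probe set 1425243_at stood at 9.26, 7.93 and 9.32 in WT skin and at 7.34, 5.36 and 6.65 in D6-deficient skin on day 2. These arrays did not overlap, as in 22.3% of all tested probe sets. The difference was -2.38 (adjusted p = 4.14e-04), and relative to day 0 it was -2.75 (adjusted p = 0.00344). On day 4 Cd207 stood at 7.33, 7.49 and 7.28 in WT and at 8.11, 7.82 and 8.02 in D6-deficient skin. The summed dendritic and Langerhans cell markers, 11 probe sets with Cd207 among them, went the other way on day 4. They were 1780 to 2430 in D6-deficient and 4039 to 4208 in WT skin, with no overlap. Summed markers of B cells stayed between 144 and 276 over the 30 arrays. The summed natural killer cell genes ran from 429 to 1377, and on day 4 they were 1220 to 1339 in WT and 916 to 1019 in D6-deficient skin, with no overlap. Between the genotypes limma passed 0 of the 13 probe sets on that day, with 6 at an unadjusted p under 0.05, where 0.513% of all tested probe sets passed.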
